A study of Arabidopsis thaliana with 6 samples.

Results

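The 9 protein disulfide isomerase genes PDIL1-1 to PDIL1-6 and PDIL2-1 to PDIL2-3 of Arabidopsis thaliana were followed in sorted pollen. They were taken by gene identifier, 9 of the 33602 genes in the count tables. The 3 paps1-3 libraries and the 3 wild-type libraries, lettered A to C in each group, came from pollen of Col plants that carried both a paps1-3 chromosome and a normal PAPS1 chromosome listed with pLat52::RFP, a red fluorescent reporter under a pollen promoter. Grains were parted by flow sorting on that fluorescence, so both groups grew on plants of the same genotype. As the genotype is written, the paps1-3 grains would be the ones without the reporter, though no label states it, and nothing used here gives the gates or the purity of the sort. PAPS1 makes one of the nuclear poly(A) polymerases that add tails to messenger RNA, and the series title names its relation to RNA-directed DNA methylation as the study's subject. Nothing in the labels says that the libraries came from separate plants or cultures, so each p-value reflects library-to-library spread alone, part or all of which may be technical. Values given library by library run in the order A, B, C.

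Protein disulfide isomerases are thioredoxin-fold enzymes of the endoplasmic reticulum (ER). They form, break and reshuffle disulfide bonds in newly made secretory proteins by means of paired cysteines in their active sites. The oxidases ERO1 and ERO2 re-oxidise these cysteines, BiP and the calnexin cycle hold the client proteins, and in plants ER stress raises many of the genes through IRE1 and membrane-bound bZIP factors. Pollen tubes secrete wall material and signalling proteins at a high rate, and cysteine-rich secreted proteins are among the clients of this machinery.

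The coding sequences show which members carry the usual catalytic pair. All 9 members were found in the RefSeq annotation of TAIR10.1, a release later than the authors' TAIR10, and were joined to the counts by identifier only. The last pair of cysteine codons with 2 codons between them is given here for each member, from the RefSeq genome and 5′ to 3′ on the coding strand, because the codons between the cysteines differ within the family. Capitals mark the 4 codons from cysteine to cysteine.
PDIL1-1: gctccatggTGTGGACACTGCcaaaagctt
PDIL1-2: gcaccatggTGTGGACATTGTcaaaaactt
PDIL1-3: gctccttggTGTGGCCACTGCcaatcattt
PDIL1-4: gcaccatggTGTGGCCATTGCcaagccctt
PDIL1-5: acaccgtggTGCGTGAACTGCgaggcacta
PDIL1-6: acaccatggTGTATTAACTGTgaggctctg
PDIL2-1: gcaccatggTGTGGCCACTGCaaatcactc
PDIL2-2: gcaccttggTGTGGACACTGCaaaaagcta
PDIL2-3: gcaccttggTGTGGACATTGCaaaaagctt
PDIL1-5 and PDIL1-6 held 1 such pair each, without the glycine and histidine codons that stood between the cysteines in the other members. PDIL1-1, PDIL1-2, PDIL1-4, PDIL2-1, PDIL2-2 and PDIL2-3 held 2 pairs each, both with glycine and histidine codons. PDIL1-3 held 2 pairs, and its first had another codon in place of histidine.
PDIL1-3 first pair: gctccgtggTGCGGCGCTTGTcaggctttg

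The members fall into pairs of close paralogs. Over aligned coding bases, PDIL1-1 and PDIL1-2 were 83.5% identical, PDIL2-2 and PDIL2-3 82.9%, PDIL1-5 and PDIL1-6 80.2% and PDIL1-3 and PDIL1-4 67.8%, while PDIL2-1 was 66.3% identical to its closest relative in the alignment, PDIL1-6. The longest run of identical bases shared by any pair was 35, between PDIL1-1 and PDIL1-2, which is shorter than the reads of 101 and 99 bases. PDIL2-1 and PDIL1-6 overlap a gene on the opposite strand by 97 and 24 bases, and these libraries do not mark strand. The neighbour of PDIL2-1, AT2G47480, had 2, 1 and 0 counts in paps1-3 and 0 in each wild-type library.

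The whole tables set the scale for every value that follows. The libraries held 19861313 to 41176647 gene counts in paps1-3 and 31909683 to 37685541 in wild type. For PAPS1 itself (AT1G17980) the paps1-3 libraries gave 18, 9 and 3 counts, and the wild-type ones 32, 25 and 20. At least 1 count was found for 24587 to 30343 genes in paps1-3 and 16869 to 19668 in wild type. TMM, a scaling that takes most genes as unchanged, gave factors of 1.47 to 1.68 to paps1-3 libraries and 0.613 to 0.673 to wild-type libraries. Levels are therefore given as CPM, counts brought to a common library size after TMM. The members' calls and the counts of each list are also given by library totals. Under totals the median log2 fold change of the 14273 tested genes was 1.62 instead of 0.37. By TMM 72.2% of the tested genes were called changed, so its assumption is not met by its own calls. Neither scale is known to be right, and each call is relative to its scale.

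The family as a whole took a larger share of the counts in paps1-3 pollen. The 9 genes together had 7705, 7860 and 4448 counts in paps1-3 and 425, 390 and 425 in wild type. As a share of all gene counts, the 9 genes made up 0.0208% ± 0.0017 of paps1-3 libraries, against 0.00122% ± 0.00010 of wild-type ones (mean ± SD over 3 libraries each), a ratio of 17.1. The groups did not overlap (two-sided exact permutation p = 0.1, the smallest that 3 against 3 libraries can give). This share is on the scale of library totals, by which the median log2 fold change of all tested genes was 1.62. By TMM the summed level of the 9 genes was 125 to 152 CPM in paps1-3 and 17.7 to 20.1 CPM in wild type. In these bulk libraries, more RNA of a gene per grain cannot be told apart from more grains or other cells that hold it.

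Of the 9 members, all of which had enough counts to be tested, 6 rose, 1 fell and 2 did not pass the test (edgeR, Benjamini-Hochberg adjusted p below 0.05). Over all tested genes, 72.2% were called, 42.3% higher and 29.9% lower. In the 6 that rose every paps1-3 library lay above every wild-type library, as in 44% of all tested genes, and in the 1 that fell every paps1-3 library lay below, as in 31.5%. The median log2 fold change was 2.51 over the members and 0.37 over all tested genes. By library totals 7 members were higher and 0 lower, where 70.2% of all genes were higher and 9.72% lower, so the count of higher members then stood near the share among all genes. PDIL1-1, PDIL1-2, PDIL1-6 and PDIL2-1, 4 of the 9, were called with more than an 8-fold increase, as were 14.8% of all tested genes. Of these, PDIL1-6 had 3, 3 and 6 wild-type counts and met the count filter only through its paps1-3 libraries, which favours a large increase.

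**Figure D1:**
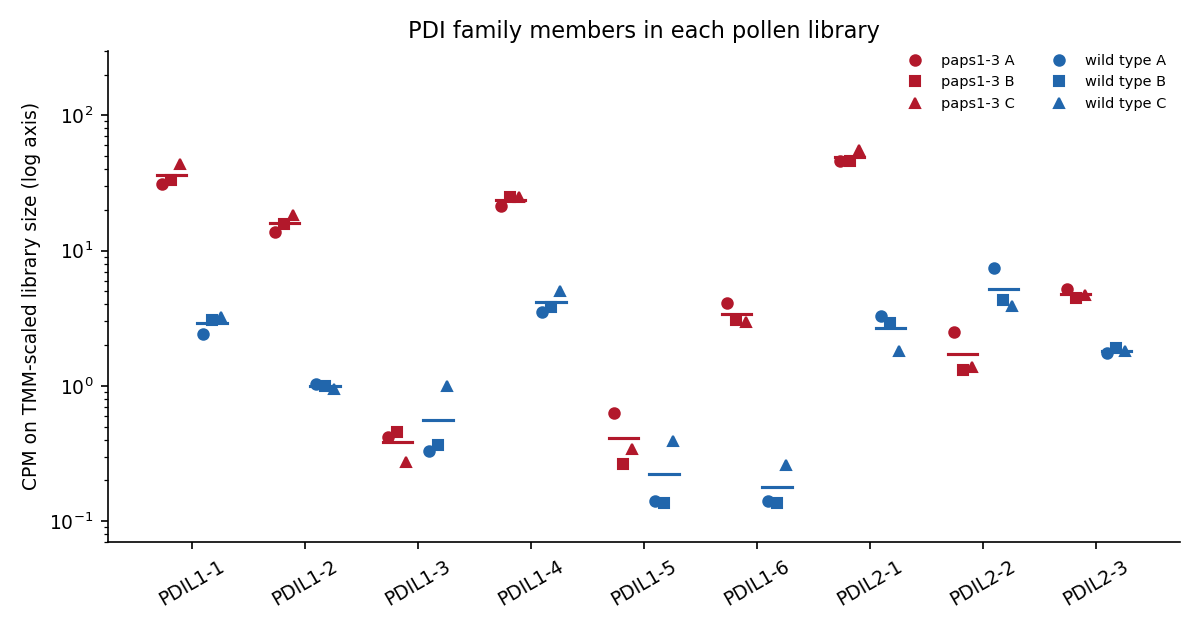
CPM of each PDI family member in each library, on a log axis, with paps1-3 libraries (red) left of wild-type libraries (blue); marker shapes give the letters A to C and short lines the group means. PDIL2-1 lay at 45.8 to 55.5 CPM in paps1-3 and 1.82 to 3.26 CPM in wild type, while for PDIL2-2 every paps1-3 library lay below every wild-type library.

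PDIL2-1 (AT2G47470; chr2:19481254-19484015, plus strand, 10 exons, RefSeq symbol UNE5), a member known from a truncation that disturbs embryo sac maturation and pollen tube guidance, had the highest level of the family in paps1-3. It had 46.2, 45.8 and 55.5 CPM in paps1-3 and 3.26, 2.90 and 1.82 CPM in wild type. The lowest paps1-3 library stood far above the highest wild-type library. Its log2 fold change was 4.21 ± 0.19 (SE, edgeR adjusted p = 2.19e-15), and 5.45 by library totals.

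PDIL1-1 and PDIL1-2 are the plant enzymes closest to classical PDI, with a catalytic domain at each end and an ER retention signal. PDIL1-1 (AT1G21750; chr1:7645610-7648855, plus strand, 9 exons) had 30.9, 33.1 and 44.0 CPM in paps1-3 and 2.41, 3.08 and 3.25 CPM in wild type. PDIL1-2 (AT1G77510; chr1:29126648-29129700, plus strand, 10 exons) had 13.8, 15.8 and 18.3 CPM in paps1-3 and 1.04, 0.998 and 0.952 CPM in wild type. Neither gene overlapped between groups, and library C was the highest of the paps1-3 libraries for both. PDIL1-1 had a log2 fold change of 3.62 ± 0.18, or 12.3-fold (edgeR adjusted p = 1.96e-14), and PDIL1-2 was 15.9-fold higher, with an SE of 0.21 on the log2 scale (adjusted p = 4.15e-14). By library totals their log2 fold changes were 4.86 and 5.23, both called.

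PDIL1-4 rose while its closest relative PDIL1-3 did not pass the test. PDIL1-4 (AT5G60640; chr5:24370827-24374098, minus strand, 12 exons) had 21.3, 24.7 and 24.7 CPM in paps1-3 and 3.54, 3.86 and 5.02 CPM in wild type, a log2 fold change of 2.51 ± 0.17 (edgeR adjusted p = 4.77e-12) with no overlap, and 3.75 by library totals. PDIL1-3 (AT3G54960; chr3:20363260-20366874, minus strand, 12 exons) had few counts, with 26, 28 and 8 counts in paps1-3 and 7, 8 and 23 in wild type. The groups overlapped, and wild-type C was the highest of all 6 libraries in CPM. Its log2 fold change was −0.53 ± 0.58 by TMM (edgeR adjusted p = 0.422), while library totals gave 0.74 ± 0.58 (adjusted p = 0.252), so these counts gave it no direction. Without wild type C it was 0.11 by TMM (adjusted p = 0.905).

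PDIL1-6 and PDIL1-5, the members without the usual codons between the cysteines, were both scarce in wild-type pollen, and PDIL1-6 rose. PDIL1-6 (AT3G16110; chr3:5460793-5463899, minus strand, 12 exons) had 254, 187 and 87 counts in paps1-3 and 3, 3 and 6 in wild type. That amounts to 3.39 ± 0.64 CPM in paps1-3 and 0.179 ± 0.070 CPM in wild type (n = 3 each), a log2 fold change of 4.21 ± 0.39 (edgeR adjusted p = 1.11e-09), and 5.46 by library totals. The lowest paps1-3 library stood far above the highest wild-type library. PDIL1-5 (AT1G52260; chr1:19460482-19463477, plus strand, 12 exons) had 39, 16 and 10 counts in paps1-3 and 3, 3 and 9 in wild type. Its groups overlapped in CPM by TMM, and it did not pass (0.88 ± 0.64, edgeR adjusted p = 0.220). By library totals PDIL1-5 was called higher (2.16 ± 0.65, adjusted p = 0.00612) and every paps1-3 library lay above every wild-type library, as in 71.2% of all tested genes. AT3G16100, the neighbour of PDIL1-6 on the opposite strand, had a log2 fold change of 0.69.

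PDIL2-2 was the exception in direction. PDIL2-2 (AT1G04980; chr1:1413644-1416218, minus strand, 9 exons) had 2.52, 1.31 and 1.37 CPM in paps1-3 and 7.47, 4.31 and 3.90 CPM in wild type. Every paps1-3 library was below every wild-type library, and library A was the highest in each group. The log2 fold change was −1.57 ± 0.29 (edgeR adjusted p = 4.11e-05). Scaled by totals it was −0.31 ± 0.34 (adjusted p = 0.413) with overlapping groups, so the decrease is one relative to the TMM scale.

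Its paralog PDIL2-3 (AT2G32920; chr2:13962213-13965531, minus strand, 9 exons) rose, the least of the 6 that did. PDIL2-3 had 5.20, 4.45 and 4.69 CPM in paps1-3 and 1.75, 1.90 and 1.82 CPM in wild type. The libraries of each group lay close together, with no overlap between groups. The log2 fold change was 1.39 ± 0.23 (edgeR adjusted p = 1.28e-05), and 2.64 by library totals.

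**Figure D2:**
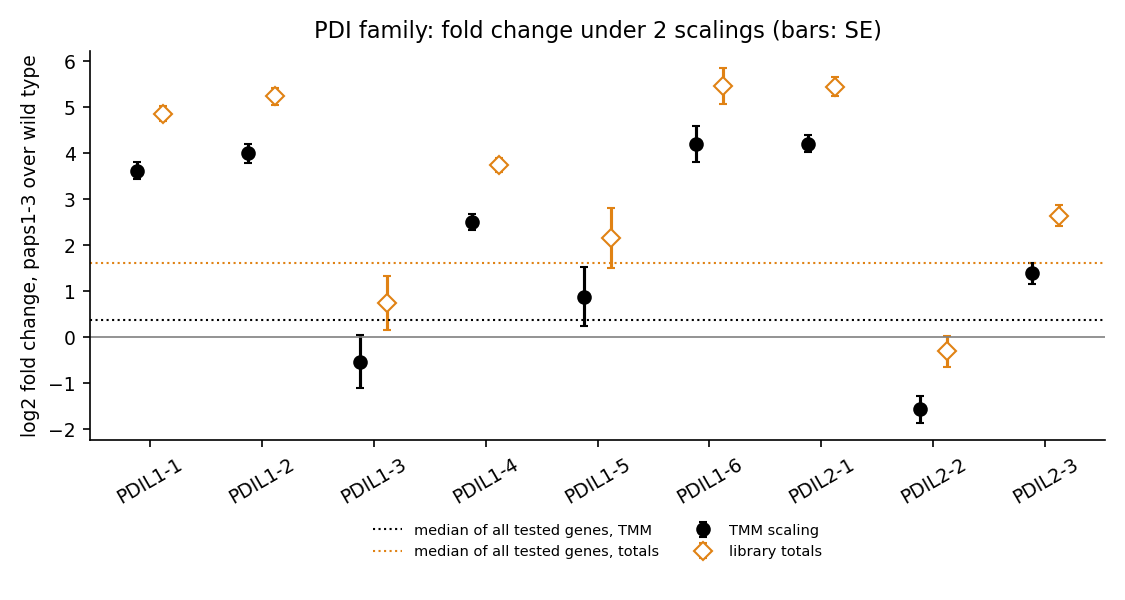
Log2 fold change of each member, paps1-3 over wild type, with SE bars, by TMM scaling (filled circles) and by library totals (open diamonds); dotted lines give the medians of all 14273 tested genes, 0.37 and 1.62. The 6 members that rose, from PDIL2-3 at 1.39 to PDIL2-1 at 4.21 by TMM, and PDIL1-5 lie above the median of all genes under both scalings, and PDIL2-2 and PDIL1-3 lie below it under both.

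A ratio of 2 genes within a library does not depend on scaling, and is given here for the close paralogs. PDIL2-2 over PDIL2-3 had log2 count ratios of −1.04, −1.75 and −1.76 in paps1-3 and 2.08, 1.17 and 1.09 in wild type. PDIL2-2 thus had fewer counts than PDIL2-3 in all paps1-3 libraries and more in all wild-type libraries, a difference of −2.97 between the group means. For PDIL1-5 over PDIL1-6 the ratios averaged −3.08 ± 0.41 in paps1-3 and 0.18 ± 0.32 in wild type (SD, n = 3 each), a difference of −3.27. For PDIL1-3 over PDIL1-4 they averaged −5.92 ± 0.43 in paps1-3 and −2.99 ± 0.59 in wild type, a difference of −2.93. In each of these 3 pairs the groups did not overlap, with a two-sided exact permutation p of 0.1, the smallest possible. After Benjamini-Hochberg adjustment over all 36 pairs of members it was 0.129, so none passed. Groups without overlap were common in the family, in 28 of the 36 pairs, and so are not particular to close paralogs. The share among pairs of all tested genes was not computed, so this count cannot be called a trait of the family. Of single tested genes, 44% had every paps1-3 library above every wild-type library by TMM, and 31.5% had every one below. PDIL1-1 over PDIL1-2 differed least of the 4 close pairs, with 1.17 ± 0.10 in paps1-3 and 1.52 ± 0.29 in wild type and overlapping groups (exact permutation p = 0.2, adjusted 0.232).

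**Figure D3:**
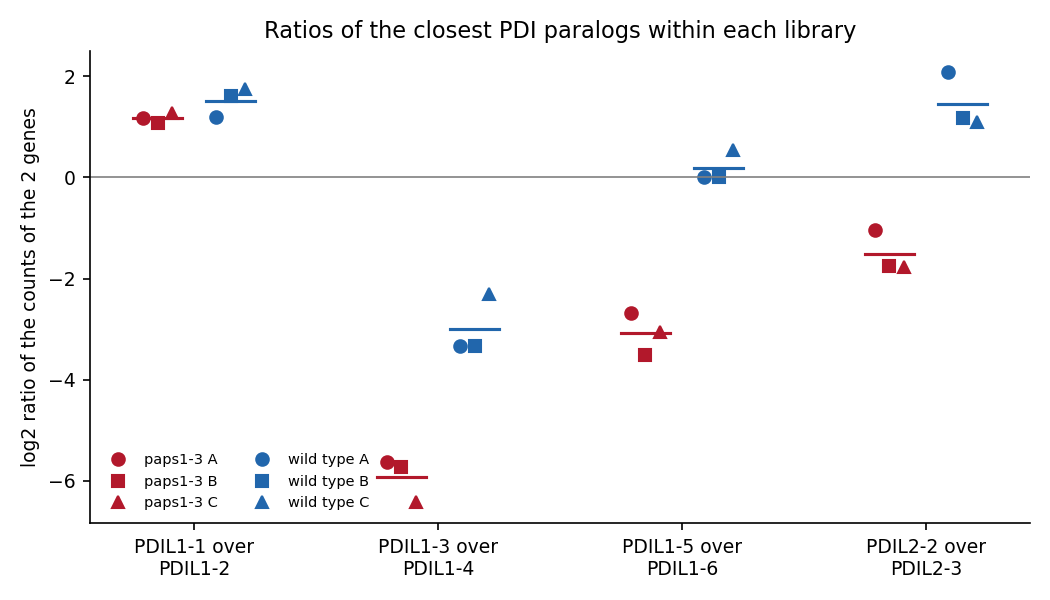
Log2 ratio of the counts of the 2 genes of each close paralog pair (0.5 added to each count) in each library, with paps1-3 (red) left of wild type (blue) and short lines for group means. For PDIL1-3 over PDIL1-4, PDIL1-5 over PDIL1-6 and PDIL2-2 over PDIL2-3 all paps1-3 libraries lie below all wild-type libraries, and PDIL1-1 over PDIL1-2 overlaps.

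The order of the members by level, as CPM per kb of coding length, differed between the groups. In paps1-3 pollen the order was PDIL2-1, PDIL1-1, PDIL1-4, PDIL1-2, PDIL2-3, PDIL1-6, PDIL2-2, PDIL1-5 and PDIL1-3. PDIL2-1 led with 45.3 ± 5.1 CPM per kb, followed by PDIL1-1 with 23.9 ± 4.7, and the neighbours PDIL1-4 and PDIL1-2, PDIL1-6 and PDIL2-2, and PDIL1-5 and PDIL1-3 overlapped. In wild-type pollen PDIL2-2 led with 3.89 ± 1.45 CPM per kb, ahead of PDIL2-1 with 2.45 ± 0.69, PDIL1-4 with 2.31 ± 0.43 and PDIL1-1 with 1.93 ± 0.29 (SD, n = 3 each). Each of these 4 overlapped its neighbour in the order, while PDIL2-3, PDIL1-2 and PDIL1-3 followed without overlap, and PDIL1-3, PDIL1-5 and PDIL1-6 overlapped at the low end.

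The members' shares of the family level are given as a description, with no test. Order and shares rest on coding length, and transcript length was not used. The coding part was 1086 of 1667 transcript bases for PDIL2-1 and 1794 of 2213 for PDIL1-4, so another length would shift both. PDIL2-1 supplied 45.1% ± 0.7 of the summed family level in paps1-3 and 18.5% ± 4.4 in wild type. PDIL1-1 supplied 23.7% ± 2.0 in paps1-3 and 14.9% ± 3.4 in wild type. PDIL2-2 supplied 1.31% ± 0.61 in paps1-3 and 29.0% ± 8.1 in wild type (SD, n = 3 each).

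**Figure D4:**
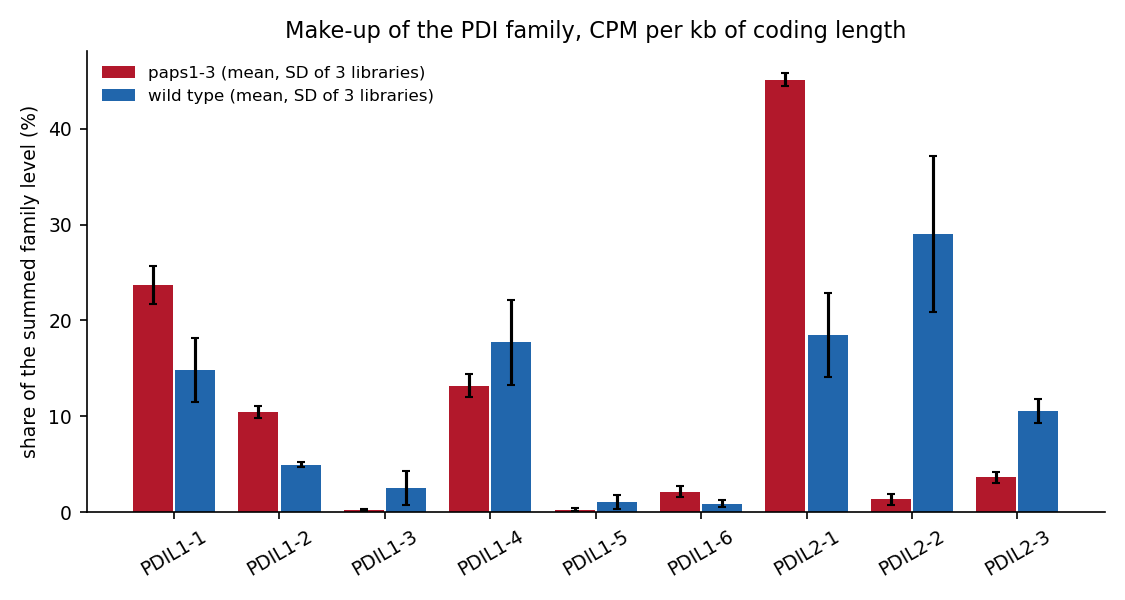
Share of each member in the summed level of the 9 genes, in CPM per kb of coding length, as the mean of 3 paps1-3 libraries (red) and 3 wild-type libraries (blue) with SD bars. PDIL2-1 has the largest share in paps1-3 at 45.1% and PDIL2-2 the largest in wild type at 29.0%.

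These calls were set beside what RefSeq's gene notes record for chemically induced ER stress. The notes describe 6 members as raised by ER stress agents and 3, PDIL1-4, PDIL1-5 and PDIL1-6, as not raised. Of the 6, PDIL1-1, PDIL1-2, PDIL2-1 and PDIL2-3 rose in paps1-3, PDIL2-2 fell by TMM and PDIL1-3 did not pass. Of the 3, PDIL1-4 and PDIL1-6 rose and PDIL1-5 did not pass by TMM. Thus 4 of 6 and 2 of 3 rose, the same fraction in both classes, where 42.3% of all tested genes rose and 29.9% fell. PDIL1-6, described as unresponsive to those agents, had a log2 fold change of 4.21 ± 0.39, beside 4.21 ± 0.19 for PDIL2-1. The value for PDIL1-6 rests on 3, 3 and 6 wild-type counts, and the gene met the count filter only through its paps1-3 libraries.

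Promoters were searched for elements known from ER stress genes. The 300 bases before each annotated start were searched on both strands for ERSE (CCAAT, then 9 bases of any kind, then CCACG), ERSE-II (ATTGG, then 1 base, then CCACG) and a UPRE core (TGACGTGG), which share the letters CCACG on one strand or the other. Of 9 members, 1 held ERSE, 0 held ERSE-II and 1 held the UPRE core, against 0.332%, 0.0656% and 1.33% of the 27443 promoters of protein-coding genes. The matches were in PDIL1-1 and PDIL1-2, whose promoters are shown with the match in capitals, 5′ to 3′ on the gene's strand. The PDIL1-1 window is chr1:7645310-7645609 and the PDIL1-2 window chr1:29126348-29126647, both on the plus strand of TAIR10.1.
PDIL1-1: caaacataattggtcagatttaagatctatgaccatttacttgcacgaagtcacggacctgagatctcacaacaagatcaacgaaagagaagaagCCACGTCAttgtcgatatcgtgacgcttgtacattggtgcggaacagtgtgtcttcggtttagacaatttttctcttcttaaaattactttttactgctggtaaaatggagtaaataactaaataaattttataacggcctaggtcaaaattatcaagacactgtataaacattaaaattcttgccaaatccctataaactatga
PDIL1-2: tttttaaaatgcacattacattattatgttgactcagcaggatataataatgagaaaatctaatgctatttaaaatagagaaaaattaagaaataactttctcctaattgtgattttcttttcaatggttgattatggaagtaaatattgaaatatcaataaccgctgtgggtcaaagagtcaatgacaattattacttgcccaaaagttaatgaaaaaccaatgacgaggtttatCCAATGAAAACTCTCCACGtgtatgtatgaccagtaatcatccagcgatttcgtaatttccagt
The UPRE core of PDIL1-1, read on the opposite strand, began 205 bases before the annotated start, and the ERSE of PDIL1-2 began 64 bases before it. PDIL2-1 and PDIL1-6, with the largest fold changes, held no match in their windows. A match is a description of the letters and says nothing of binding.

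Other genes of disulfide formation gave mixed calls. For comparison, 42.3% of all tested genes were higher and 29.9% lower by TMM, and 70.2% and 9.72% by library totals. Of the 4 PDIL5 proteins, more distant relatives, 3 rose and 1 did not pass (median log2 fold change 0.95), while by library totals all 4 were higher (median 2.18). Without wild type A, 1 was higher and 1 lower. PDIL5-2 (AT1G35620) had 39, 38 and 37 counts in paps1-3 and 4, 1 and 0 in wild type, a log2 fold change of 3.38 ± 0.78 (edgeR adjusted p = 0.000517). PDIL5-4 (AT4G27080) was at 0.85 ± 0.25 and PDIL5-1 (AT1G07960) at 1.05 ± 0.43, both called, and PDIL5-3 (AT3G20560) at −0.49 ± 0.23 (adjusted p = 0.0575), which was 0.76 and called higher by library totals. Under 6 of 12 other settings, the letter as a block among them, 1 gene of this list was called lower. Of the 4 thiol oxidases, ERO1 (AT1G72280) and ERO2 (AT2G38960) rose by 1.48 ± 0.20 and 1.71 ± 0.33 on the log2 scale, and by 2.73 and 2.96 by library totals. QSOX1 (AT1G15020), a sulfhydryl oxidase that fuses a PDI-type domain to an oxidase domain, had 13.7 ± 2.1 CPM in paps1-3 and 47.6 ± 4.2 CPM in wild type (n = 3 each), a log2 fold change of −1.80 ± 0.15 (adjusted p = 1.14e-10) that was −0.56 and still called by library totals. QSOX2 (AT2G01270) did not pass by TMM (0.35 ± 0.16, edgeR adjusted p = 0.0551) and was called higher by library totals (1.59, adjusted p = 4.86e-08), so that 3 oxidases were higher and 1 lower on that scale.

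Most of the chaperones that work beside the PDI enzymes rose. Of 13 tested ER chaperones, 9 rose and 0 fell (median 2.52, against 0.37 over all tested genes), where 42.3% of all tested genes were higher and 29.9% lower. The 9 include BIP3, which had 5, 4 and 2 wild-type counts and met the count filter only through its paps1-3 libraries. By library totals 13 were higher (median 3.76, against 1.62 over all tested genes, of which 70.2% were higher). Without paps1-3 C, and likewise without wild type C, 1 chaperone was called lower. SHD, the HSP90 of the ER (AT4G24190), was at 5.05 ± 0.18, the HSP70 BIP2 (AT5G42020) at 4.75 ± 0.17, calnexin CNX1 (AT5G61790) at 4.28 ± 0.20 and BIP1 (AT5G28540) at 2.52 ± 0.14. BIP1 and BIP2 are near-identical copies, so their split is uncertain. Of 5 tested ER-associated degradation genes 3 rose and 1 fell by TMM, while by library totals 5 were higher and 0 lower: the lectin OS9 (AT5G35080) was at 3.25 ± 0.23, the channel component DER1 (AT4G29330) at 2.80 ± 0.65 and the ubiquitin ligase HRD1A (AT3G16090) at 1.30 ± 0.32, while HRD1B (AT1G65040) was at −0.53 ± 0.19 (edgeR adjusted p = 0.0153) and, by library totals, at 0.71 and called higher (adjusted p = 0.00203). The count of lower genes in this list was 0 without paps1-3 A and 2 without paps1-3 C or without wild type A.

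The sensors and transcription factors of the unfolded protein response gave mixed calls. Of 5 tested, 1 rose, 1 fell and 3 did not pass, with a median log2 fold change of −0.13. Among all tested genes 42.3% rose and 29.9% fell. BZIP17 (AT2G40950) rose by 2.14 ± 0.46 on the log2 scale and IRE1B (AT5G24360), a sensor kinase and RNase, was at −1.30 ± 0.17 and −0.05 by library totals. BZIP60 (AT1G42990), whose messenger is spliced by IRE1, was at −0.16 ± 0.15 (adjusted p = 0.351) and BZIP28 (AT3G10800) at −0.13 ± 0.13 (adjusted p = 0.363). By library totals 4 of the 5 rose, where 70.2% of all tested genes did. BZIP60 then rose by 1.09 and BZIP28 by 1.11 on the log2 scale, both under the median of all genes by totals. These counts do not separate spliced from unspliced BZIP60 messages.

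**Figure D5:**
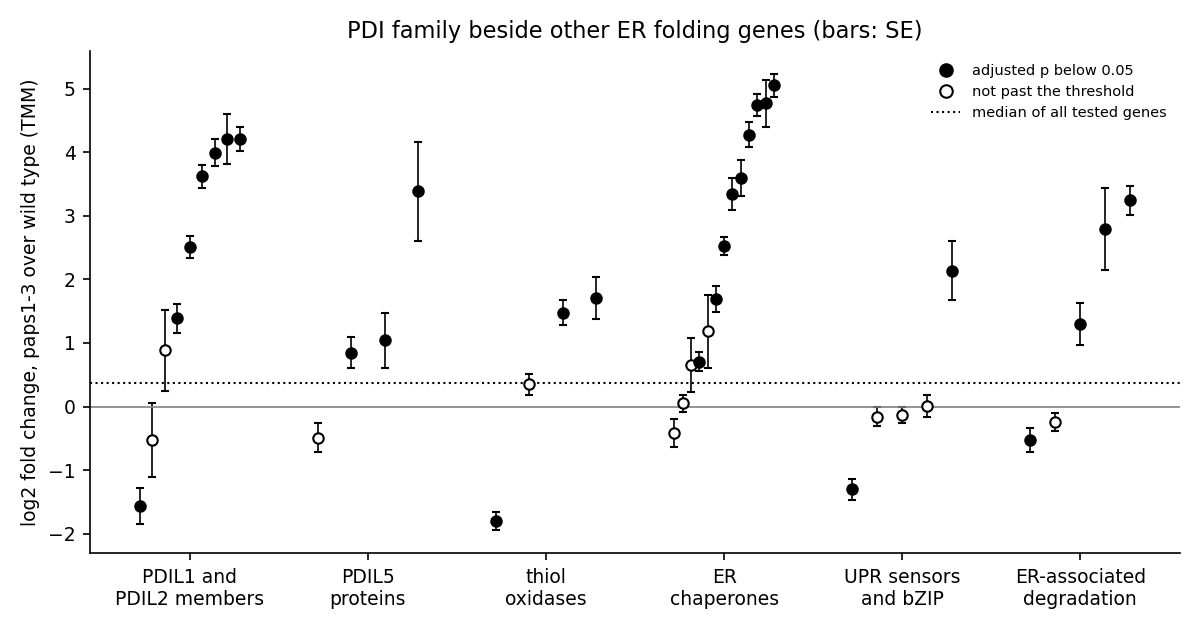
Log2 fold change, paps1-3 over wild type by TMM, of every tested gene of the PDI family and of 5 related lists, sorted within each list, with SE bars; filled points passed the test and the dotted line is the median of all tested genes at 0.37. PDI members and ER chaperones reach 4.21 and 5.05, whereas of the UPR sensors and bZIP factors BZIP17 alone lies above 2.

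By the root mean square difference of centred log2 CPM over the 6 libraries, the genes outside these lists most like PDIL1-1 were AT4G17690, a peroxidase family gene (0.0785), the uncharacterised AT1G67540 (0.0814) and AT2G31425, of the invertase and pectin methylesterase inhibitor family (0.103). Their log2 fold changes were 3.60, 3.71 and 3.54. Within the family PDIL1-2 was nearest to PDIL1-1 (0.251), to PDIL2-1 (0.266) and to PDIL1-6 (0.420), and PDIL2-2 lay farthest from any other member (0.995 to PDIL1-3).

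Several measures moved with the groups beside the PDI genes. The marker counts stand beside all tested genes, of which 29.9% fell and 42.3% rose by TMM, and 9.72% and 70.2% by library totals. Of 7 vegetative pollen markers 6 fell by TMM (5 by library totals) and VEX1 (AT5G62850) rose, and their summed level was 17843 to 21965 CPM in paps1-3 and 93541 to 108743 CPM in wild type. Of 6 sperm cell markers, 5 were tested and 5 fell by TMM (2 by library totals), with summed levels of 143 to 199.6 CPM in paps1-3 and 742 to 787 CPM in wild type. Of 9 tapetum markers 3 had enough counts, of which 2 rose and AMS fell by TMM (log2 fold change −1.17, and 0.08 by library totals). The 2 that rose, LAP6 and MYB80, met the count filter only through their paps1-3 libraries. The list summed to 2.02 to 5.62 CPM in paps1-3 and 1.94 to 2.68 CPM in wild type. The 5.62 was paps1-3 A, in which GRP17 alone gave 2.91 CPM (179, 21 and 5 counts in paps1-3 and 3, 1 and 4 in wild type), and the other paps1-3 libraries lay within the wild-type range. The count of higher tapetum genes was 1 without paps1-3 B, wild type A or wild type B and 3 without paps1-3 C, and that of lower ones was 0 without wild type B. The tapetum marker A9 was at 0 in all 6 libraries, and MS1, ATA7 and LAP5 were at 0 in all wild-type libraries. In paps1-3 MS1 had 10, 1 and 3 counts, ATA7 had 2, 1 and 0, and LAP5 had 2, 1 and 1. DYT1, too scarce to be tested, had 4, 10 and 3 counts in paps1-3 and 4, 4 and 5 in wild type. Of 8 leaf photosynthesis markers 2 had enough counts, with PSBO1 higher under both scalings and RBCS2B lower by TMM, a call lost in 11 of 12 other settings, by library totals and without any 1 library among them. The list summed to 1.40 to 1.53 CPM in paps1-3 and 0.614 to 0.866 CPM in wild type. Mitochondrion-encoded genes took 2.57% to 4.22% of counts in paps1-3 and 0.0340% to 0.0523% in wild type. The part of these differences in the PDI result was not tested.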

How the data were processed

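Read counts per gene were deposited by the authors as 1 table per library, made with TopHat2 and HTSeq on TAIR10, per the submitters' processing notes; no versions, options or annotation release are named there. Per the labels, total RNA was amplified with the Ovation RNA-seq system v2, which does not mark strand, and read in pairs of 101 and 99 bases. Rows that name no gene were left out: reads without a feature (1.52% of reads in paps1-3, 1.24% in wild type), ambiguous reads (2.46%, 2.34%) and reads placed at several positions (9.84%, 5.59%).

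Counts were tested with edgeR 4.0.16 in R 4.3.3 (robust quasi-likelihood test, TMM, genotype as the only term, filterByExpr with minimum count 10 and minimum total 15), which kept 14273 genes. A gene was called at a Benjamini-Hochberg adjusted p below 0.05 over all of them. Errors of fold changes are SE from that test, and levels are mean ± SD of 3 libraries. Shares and ratios were compared by exact permutation tests with scipy 1.17.1. Member coordinates are of TAIR10.1. Levels per kb use the coding length of the longest RefSeq product; 32835 of 33602 identifiers matched. Alternatives were library totals, DESeq2 1.42.0 size factors and test, other filters, the letter as a block, and each library left out.

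The members and lists were chosen with earlier results of these data known. The text names all 9 members, up to 4 tested genes with the smallest p in each related list, and the 3 genes nearest to PDIL1-1. Marker genes, the overlapping neighbours, PAPS1 and markers named at 0 stand outside that rule, as do BIP3 and CNX2, named for their few wild-type counts. The test was run on simulated counts of 11253 genes, few of them changed, and those equally up and down. It recovered 54% of 2-fold and 84% of 4-fold changes, with 7 false calls. In the real libraries 72.2% of genes were called, so the simulation says nothing of the scaling between the groups.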

Additional observations from a re-analysis of the deposited data

How the results depend on the processing

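The count of higher members was 6 under 11 of 12 alternatives and 7 by library totals; the 11 include the letter as a replicate block (6 higher, 1 lower), DESeq2 and every library left out in turn. The 1 lower member held in all but library totals, where it was 0. By library totals 10018 genes were higher and 1387 lower, against 6037 and 4272 by TMM. The log2 fold changes of the 6 members that rose kept their direction and call in 12 of 12 alternatives each. PDIL2-2 kept its call in 11 of 12. PDIL1-3 turned to 0.74 by library totals, and with each library left out it ran from −0.86 to 0.11, positive only without wild type C, and PDIL1-5 passed by library totals alone. The family's share of counts was 17.1 times as high in paps1-3 as in wild type, 17.7 times over nuclear genes and 14.6 times without the 100 most abundant genes, and 16.5 to 17.97 times when each library was left out. None of these ratios uses TMM, by which the summed level was 125 to 152 CPM in paps1-3 and 17.7 to 20.1 CPM in wild type. Differences in the ratios of the 4 close paralog pairs moved by less than the spread between libraries when 1 was added to each count or any library was left out. Of 216 counts of calls in the other lists, 176 stayed within 1.5 times and 40 did not. PDIL1-3, PDIL1-5 and, in wild type, PDIL1-6 rest on few counts, so smaller changes in them were not detectable at this depth. PDIL1-5, PDIL1-6, PDIL5-2, BIP3, CNX2, DER1, BZIP17, LAP6, MYB80 and PSBO1 had fewer than 10 counts in every wild-type library. They met the count filter only through their paps1-3 libraries. Deviations from the group means correlated at 0.207, 0.0958 and 0.0646 between libraries lettered A, B and C, not all above 0.1, so the letters were not taken as pairs, although each library correlated best with its own letter. The replicate block gave 6116 genes higher and 4426 lower.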
